A study of Mus musculus with 8 samples.

Results

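NF-kB subunits and feedback inhibitors were followed across the medullary thymic epithelial cell (mTEC) line and its *Aire* mutant clone, before and after thymocyte adhesion. The members were 10 of the 24052 genes listed in each library, *Nfkbia*, *Nfkbie*, *Nfkbiz*, *Nfkb1*, *Nfkb2*, *Rel*, *Relb*, *Tnfaip3*, *Bcl3* and *Birc3*. They are genes of the NF-kB core and were chosen by their measured change after against before adhesion in these libraries. Values after against before adhesion are therefore given as a description, without a test. Only the contrasts of the cell types and the difference of the adhesion effects were tested. That difference is made of the changes that chose the members, so its counts of members are not independent of the choice.

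The WT cells were the murine mTEC 3.10 line, labelled C57BL/6 and wildtype. The mutant cells were E6, 1 clone of that line edited by CRISPR-Cas9 in *Aire*, labelled with the genotype Aire +/- and described in the study's methods and text as carrying indels in both alleles. Each was sequenced without thymocytes (before adhesion) and after 12 h with thymocytes of C57BL/6 mice at 50 thymocytes per mTEC, from which adherent thymocytes were washed off. There were 2 RNA-seq libraries per condition and 8 in all, and the labels do not say whether the pairs were separate cultures, so p-values may measure technical spread only. The mTECs had been cultured for 24 h in WT after replicate 2, E6 before replicate 1 and E6 after replicate 1, and for 12 h in the others. Protocol text of E6 before adhesion speaks of thymocytes, against the titles and source names, which were followed here.

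NF-kB transcription factors are dimers of Rel-family subunits held inactive by IkB proteins. In the canonical pathway, IkB kinase marks IkB for destruction and dimers of RelA or c-Rel with p50 enter the nucleus, whereas in the non-canonical pathway the kinase NIK leads to processing of p100 into p52, the partner of RelB. Many of the genes switched on encode inhibitors of the pathway, which makes them a feedback, and in the thymic medulla this pathway, fed by receptors such as RANK, CD40 and the lymphotoxin beta receptor, is known to be needed for mTEC development.

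Promoter sequences of members are shown because they hold the motif that NF-kB dimers bind, the kappaB site. Windows from 250 bases before to 50 bases after each start were read from RefSeq (GRCm38.p6) for the 7 members matched there, all except *Nfkbiz*, *Nfkb1* and *Relb*. The kappaB consensus was searched on both strands and was present for 6 of the 7 members, all but *Birc3*, and for 5.14% of the 27025 genes in the table. These are matches of letters in a window and were not tested for binding. The 250 bases before the start of *Nfkbia*, at chr12:55492648-55492897 on the minus strand, read as follows from 5′ to 3′, with the consensus match in capitals.
Nfkbia: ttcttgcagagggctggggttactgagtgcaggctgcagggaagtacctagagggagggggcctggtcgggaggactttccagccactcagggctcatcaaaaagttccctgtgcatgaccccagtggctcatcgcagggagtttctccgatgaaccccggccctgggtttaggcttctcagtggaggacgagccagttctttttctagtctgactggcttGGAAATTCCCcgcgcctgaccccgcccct

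For the other members with a match, 1 window of 30 bases each is given on the strand of the gene, with the match in capitals, so that the core can be compared between members. The windows lie at chr10:19015403-19015432 on the minus strand for *Tnfaip3*, chr11:23771041-23771070 on the minus strand for *Rel*, chr19:46304716-46304745 on the plus strand for *Nfkb2*, chr17:45555584-45555613 on the plus strand for *Nfkbie* and chr7:19822734-19822763 on the minus strand for *Bcl3*.
Tnfaip3: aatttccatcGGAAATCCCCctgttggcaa
Rel: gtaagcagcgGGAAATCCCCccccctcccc
Nfkb2: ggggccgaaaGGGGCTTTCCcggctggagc
Nfkbie: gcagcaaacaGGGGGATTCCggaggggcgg
Bcl3: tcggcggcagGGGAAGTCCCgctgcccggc
In the windows shown, *Tnfaip3* and *Rel* carried the same letters in the match, and in *Nfkb2* the match ended 2 bases before one of its listed starts. Further matches with other letters were present for *Tnfaip3*, *Rel* and *Nfkb2* and are not shown. The *Bcl3* match lay 3 to 12 bases after its start.

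Gene counts per library ran from 13506610 to 20145154, so that 3 counts, the floor used for a gene at 0, correspond to 0.149 to 0.222 CPM, the counts scaled to a common library total. CPM values here were scaled by the TMM method, and floors cover counting error only, whereas the 95% intervals below come from the fit and hold the spread between libraries. In WT after replicate 1, genes took 66.7% of alignments, while the share elsewhere was 75.7 to 78.8%, and its levels fell with GC content by 0.51 log2 units per 10% GC, against slopes from -0.03 to 0.15 in the others. The edited *Aire* itself was at 0 to 3 counts in every library, in WT as in E6, so it checks no label. The epithelial markers *Epcam* (537 to 643 CPM), *Krt8* and *Krt14* were high in every library, whereas the mTEC markers *Fezf2*, *Cd80* and *Cldn3* were at 0 to 4 counts and *Cldn4* was high. *Krt5* did not exceed 1.02 CPM.

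In the GENCODE vM21 annotation of GRCm38, the inhibitor genes lie at chr12:55489410-55492647 (*Nfkbia*), chr17:45555703-45563169 (*Nfkbie*), chr16:55811375-55838899 (*Nfkbiz*) and chr7:19808462-19822770 (*Bcl3*). The subunit genes lie at chr3:135584655-135691547 (*Nfkb1*), chr19:46304320-46312385 (*Nfkb2*), chr11:23736847-23770970 (*Rel*) and chr7:19606217-19629438 (*Relb*), and the ubiquitin genes at chr10:19000910-19015657 (*Tnfaip3*) and chr9:7848699-7873186 (*Birc3*). *Nfkbie* and *Nfkb2* are on the plus strand and the others on the minus strand. *Relb* and *Bcl3* are both on chromosome 7. The exons of *Bcl3* overlap those of a gene on the other strand, *Gm16175*.

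**Figure D1:**
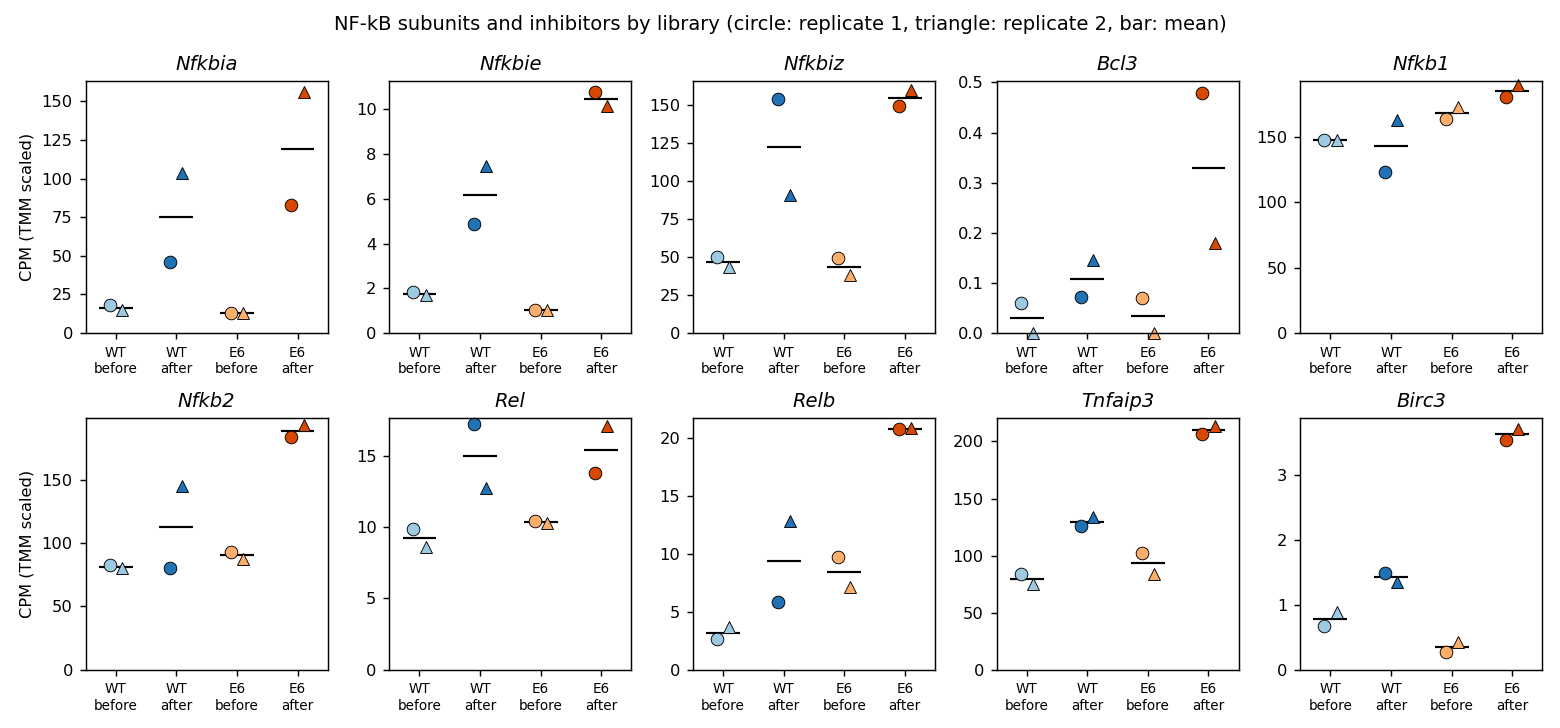
CPM of each member in the 8 libraries, with a panel per gene and axes that start at 0, circles for replicate 1, triangles for replicate 2 and bars for the mean of 2. By their means, every member was highest in E6 after adhesion, with *Rel* at 15.4 CPM there and 15.0 in WT after. *Nfkb1* differed little between conditions, and *Bcl3* stayed below 0.5 CPM.

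*Nfkbia* encodes IkB alpha, the main cytoplasmic inhibitor, and read 18.0 and 14.7 CPM in WT before adhesion, 46.3 and 103.5 in WT after, 13.2 and 12.9 in E6 before and 82.7 and 156.0 in E6 after. Every library after adhesion lay above every library before it, but after adhesion the libraries of the cell types overlapped. The log2 fold change (FC) after against before adhesion was 2.20 in WT and 3.19 in E6. *Nfkbie*, which encodes IkB epsilon, read 1.82 and 1.70 CPM in WT before, 4.90 and 7.45 in WT after, 1.04 and 1.02 in E6 before and 10.8 and 10.2 in E6 after. E6 thus lay below both WT libraries before adhesion and above both after it, with a log2 FC of 1.82 in WT and 3.34 in E6.

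*Nfkbiz* and *Bcl3* encode nuclear, atypical IkB proteins that act with p50 or p52 on chromatin. *Nfkbiz* read 49.7 and 43.3 CPM in WT before, 153.8 and 90.8 in WT after, 49.2 and 38.0 in E6 before and 149.0 and 159.4 in E6 after. The cell types overlapped in both conditions, while the log2 FC with adhesion was 1.39 in WT and 1.82 in E6. *Bcl3* had counts of 1 and 0 in WT before, 1 and 3 in WT after, 1 and 0 in E6 before and 8 and 3 in E6 after. It did not pass the filter on low counts and was not tested, and of its 8 libraries only E6 after replicate 1 exceeded 3 counts.

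Among the subunits, *Nfkb1*, which encodes the precursor of p50, was flat. Its CPM were 147.6 and 147.6 in WT before, 123.4 and 162.7 in WT after, 163.8 and 172.9 in E6 before and 180.5 and 189.3 in E6 after, with log2 FC of -0.04 and 0.14 with adhesion in WT and E6. *Nfkb2*, which encodes p100, read 83.0 and 80.0 CPM in WT before, 80.1 and 144.9 in WT after, 93.2 and 87.3 in E6 before and 183.8 and 193.3 in E6 after. WT after replicate 1 stood at the level before adhesion and replicate 2 far above it. The log2 FC of 0.47 in WT thus rests on 1 library, against 1.06 in E6. WT after replicate 1 is the library whose levels fell with GC content, and was cultured 12 h against 24 h for replicate 2. GC content was 59.1% for *Nfkb2* and *Relb*, 55.7% for *Nfkbie*, 54.2% for *Nfkbia* and 51.0% for *Nfkb1*. It was 49.1% for *Nfkbiz*, 48.1% for *Tnfaip3*, 47.6% for *Birc3* and 42.5% for *Rel*. The part of GC content or culture time in this gap was not tested. The annotated exons of *Nfkb2* overlap those of *Psd* on the other strand, and the strand setting of the counting is not given in the sources used here.

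*Rel* encodes c-Rel and read 9.84 and 8.62 CPM in WT before, 17.2 and 12.8 in WT after, 10.4 and 10.3 in E6 before and 13.8 and 17.1 in E6 after. After adhesion the cell types overlapped fully, and the log2 FC was 0.69 in WT and 0.58 in E6. *Relb*, the partner of p52, read 2.61 and 3.69 CPM in WT before, 5.89 and 12.9 in WT after, 9.71 and 7.18 in E6 before and 20.8 and 20.8 in E6 after. E6 before adhesion already stood within the range of WT after adhesion, and the log2 FC with adhesion was 1.60 in WT and 1.31 in E6.

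The last 2 members act on ubiquitin chains around the TNF and IL-1 receptors. *Tnfaip3* encodes a ubiquitin-editing enzyme that switches the pathway off, and read 84.3 and 74.7 CPM in WT before, 126.1 and 133.7 in WT after, 102.2 and 84.3 in E6 before and 206.8 and 213.9 in E6 after. Its replicates lay close together, with a log2 FC of 0.71 in WT and 1.17 in E6. *Birc3* encodes a ubiquitin ligase that restrains NIK, and had counts of 11 and 12 in WT before, 21 and 28 in WT after, 4 and 8 in E6 before and 59 and 62 in E6 after. In CPM these were 0.67 and 0.88, 1.49 and 1.35, 0.28 and 0.43, and 3.53 and 3.70, so that *Birc3*, like *Nfkbie*, was lowest in E6 before and highest in E6 after adhesion. Its log2 FC was 0.87 in WT and 3.30 in E6.

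**Figure D2:**
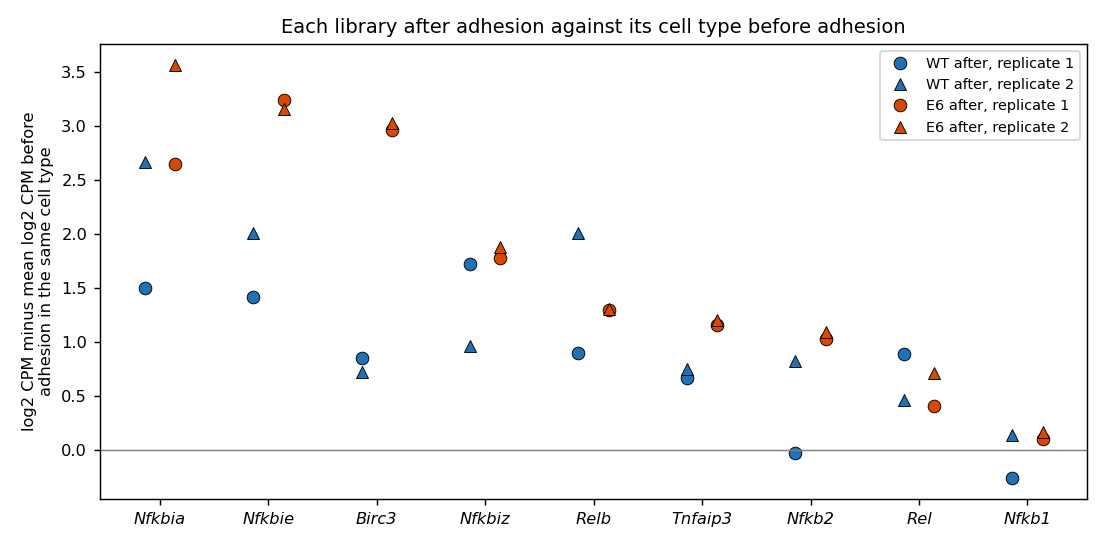
Log2 CPM of each library after adhesion minus the mean log2 CPM of the 2 libraries before adhesion in the same cell type, for the 9 members that passed the filter, with WT in blue and E6 in orange. All E6 points lie above 0, the WT replicates of *Nfkbia*, *Nfkbiz*, *Relb* and *Nfkb2* lie apart, and *Nfkb1* stays near 0.

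Over the 9 members that passed the filter, of 10 in all, the median log2 FC after against before adhesion was 1.45 averaged over the cell types, 0.87 in WT and 1.31 in E6. Over all 11672 tested genes these medians were 0.00, 0.02 and -0.02. In 6 of the 9, every library after adhesion lay above every library before adhesion, also when libraries of different cell types were compared. This held for 3.82% of tested genes. The exceptions were *Nfkb1*, *Nfkb2* and *Relb*. Of these, *Relb* failed only across the cell types, with E6 before adhesion within the range of WT after. Within WT every library after adhesion lay above every library before it for 7 of 9 members, beside 16.6% of tested genes. Within E6 the same held for 9 of 9, beside 23.6%. Since the change with adhesion chose the members, nothing is read from these counts. By culture time, the median of the 9 differences was 1.52 in E6 cultured 12 h and 1.09 in E6 cultured 24 h, above 0 for all 9 at both times. Each of these rests on 1 library after and 1 before adhesion. The median was 0.90 in WT cultured 12 h, where 7 of 9 were above 0, and WT had no library before adhesion at 24 h. The WT value rests on WT after replicate 1 alone, the library with 66.7% of alignments on genes.

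Thymocyte transcripts moved with adhesion too. Of 25 thymocyte markers, 16 were analysed here, and *Dntt* was the only defining one among them. Their summed level was 1.21 and 1.40 CPM in WT before, 17.4 and 14.5 in WT after, 3.19 and 1.87 in E6 before and 110.1 and 91.0 in E6 after. Of the 16, 12 were above every library before adhesion in both WT libraries after it and 15 in both E6 libraries. In the averaged contrast 11 of the 13 tested were higher by edgeR's test, beside 1.79% of tested genes. However, 8 of the 16 had 0 counts in every library before adhesion. The rest, all but *Lef1*, stayed at or below 0.304 CPM there, under the 0.613 CPM of the low-count filter. Such markers had to be higher after adhesion to be tested. Nothing is read from that count. The ratio of E6 after to WT after ran from 1.85 to 12.4 over these markers, with a median of 6.54, and from 1.03 to 2.54 over the 9 members, with a median of 1.62. These ranges are not like measures, since most markers were near 0 before adhesion and most members were not. Mean rises in WT and E6 were 31.0 and 98.3 CPM for *Nfkb2*, 0.65 and 3.26 for *Birc3* and 58.6 and 106 for *Nfkbia*. They were 5.78 and 5.08 for *Rel*, and 1.66 and 16.1 for the marker *Dntt*. Of the other marker lists, 9 myeloid and dendritic markers summed to 51.2 to 80.3 CPM over the 8 libraries. Most of this sum was *Csf1r*, at 39.2 to 65.9 CPM, so it hides markers at low levels. *Lyz2* had 0 counts in every library before adhesion, 12 and 24 in WT after and 109 and 88 in E6 after. Every library after lay above every library before for 4 of the 9 in WT and 6 in E6, beside 16.6% and 23.6% of tested genes. By edgeR, 3 of the 6 tested were higher with adhesion. Among the 9, 3 had 0 counts in every library before adhesion, so the same limit holds for that count. The sums were 0 to 0.718 CPM for 4 B cell markers and 1.12 to 3.87 for 5 fibroblast markers. The 3 endothelial markers moved with adhesion, with a sum of 0 in both WT libraries before, 0.142 and 0.242 CPM in WT after, 0.0694 and 0 in E6 before and 2.10 and 1.55 in E6 after. Of these, the 1 tested, *Pecam1*, was higher with adhesion by edgeR, and *Cdh5* was at 0 or 1 count in every library. *Pecam1* had 0 counts in every library before adhesion, so it too could be tested only if higher after it. Fewer cells of a type and less RNA per cell cannot be told apart in bulk libraries, and the part of RNA from other cells in the members' levels was not tested.

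Whether the members differed between E6 and WT was tested with edgeR's quasi-likelihood test over all tested genes, with FDR values adjusted by Benjamini-Hochberg. DE mRNAs were those with FDR below 0.05 and FC of 1.5 or more. Averaged over both conditions, 1 of 9 members was DE, beside 11.3% of tested genes. This was *Relb*, higher in E6 by a log2 FC of 1.28 (SE 0.26, 95% interval 0.67 to 1.89, FDR = 0.0155). *Tnfaip3* had a log2 FC of 0.46 (SE 0.09, FDR = 0.0146), below the FC limit. *Nfkb1* was the only member in which all 4 E6 libraries lay above all 4 WT libraries, as in 15.7% of tested genes, with a log2 FC of 0.28 and an FDR of 0.0972. The *Relb* call was lost when WT before replicate 1 or 2, E6 before replicate 1 or E6 after replicate 1 or 2 was left out, with adjusted p from 0.0539 to 0.0817. The median log2 FC of E6 against WT over the 881 tested genes of chromosome 7, which holds *Relb*, was 0.01. For chromosome 10, which holds *Tnfaip3*, this median was -0.37 averaged and -0.37 after adhesion over 541 genes, opposite in sign to *Tnfaip3*, and the part of this shift in its values was not tested.

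Before adhesion, 0 of 9 members were DE, beside 5.01% of tested genes. At an unadjusted p under 0.05, reached by 21.6% of tested genes, there were 3, *Birc3* (log2 FC -1.08, FDR = 0.178), *Nfkbie* (log2 FC -0.77, FDR = 0.207) and *Relb* (log2 FC 1.43, FDR = 0.0805). DESeq2 called *Relb* alone. Without overlap of the libraries, E6 lay above WT in 4 of 9 members (*Nfkb1*, *Nfkb2*, *Rel* and *Relb*), beside 35.4% of tested genes, and below WT in 3 (*Nfkbia*, *Nfkbie* and *Birc3*), beside 35.5%. *Birc3* and *Nfkbie* had estimates below 0 and *Relb* above 0, and the 95% intervals of the log2 FC were -2.03 to -0.12 for *Birc3*, -1.50 to -0.04 for *Nfkbie* and 0.51 to 2.34 for *Relb*.

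The libraries after adhesion also entered the choice of the members, so counts of members between the cell types after adhesion are not independent of it. There, 2 of 9 members were DE, beside 8.91% of tested genes. *Birc3* was higher in E6 by a log2 FC of 1.35 (SE 0.28, FDR = 0.0288) and *Tnfaip3* by 0.70 (SE 0.13, FDR = 0.0222). *Relb* (log2 FC 1.13, FDR = 0.0808), *Nfkbie* (0.75, FDR = 0.0779), *Nfkb2* (0.74, FDR = 0.0951) and *Nfkb1* (0.37, FDR = 0.142) had an unadjusted p under 0.05 only, which 29.7% of tested genes had. E6 lay above WT without overlap in 6 of 9 members, all but *Nfkbia*, *Nfkbiz* and *Rel*, beside 26.8% of tested genes, and below in 0. For *Nfkbia* the 95% interval of the log2 FC ran from -0.27 to 1.61, for *Nfkbiz* from -0.24 to 0.91 and for *Rel* from -0.42 to 0.51. The *Birc3* call was lost without either library of WT before, E6 before or E6 after (adjusted p from 0.0627 to 0.227), and that of *Tnfaip3* without either library of WT before or E6 after (adjusted p from 0.0649 to 0.183). With only the 4 libraries compared, both calls were lost, with adjusted p of 0.157 for *Birc3* and 0.166 for *Tnfaip3*. Without WT after replicate 1 there were 4 DE members and without WT after replicate 2 there were 7, and without any other single library there were 0 or 1.

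**Figure D3:**
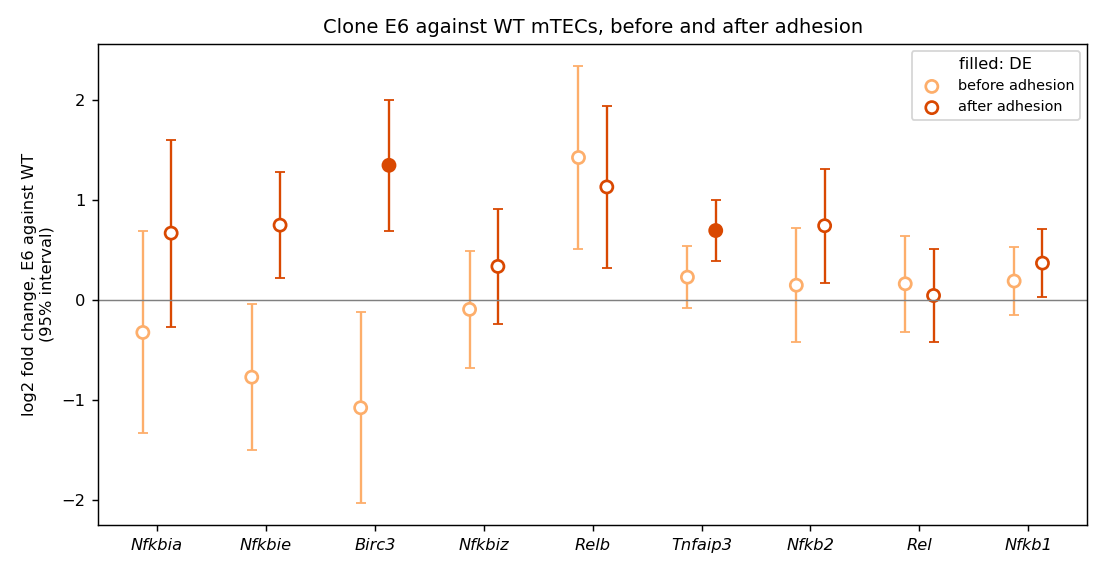
Log2 FC of E6 against WT for the 9 tested members before and after adhesion, with 95% intervals and filled points for DE mRNAs. Estimates of *Birc3*, *Nfkbie*, *Nfkbia* and *Nfkbiz* lie below 0 before and above 0 after adhesion, and *Relb* lies above 0 in both.

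The difference of the adhesion effects, E6 minus WT, was DE for 0 of 9 members and for 0% of tested genes by edgeR, and for 0 members by DESeq2. At an unadjusted p under 0.05 there were 3 members, *Birc3* with a log2 difference of 2.43 (SE 0.49, 95% interval 1.27 to 3.58), *Nfkbie* with 1.52 (SE 0.39, 0.62 to 2.43) and *Tnfaip3* with 0.47 (SE 0.19, 0.03 to 0.90). Their FDR was 0.988, and 2.54% of tested genes had such a p. The changes with adhesion that chose the members make up this difference, so nothing is read from these counts of members. For *Relb* the log2 difference was -0.29 with an interval from -1.51 to 0.92, and for *Rel* it was -0.12 with an interval from -0.78 to 0.55. *Nfkbie* and *Birc3* were the members with E6 below WT in every library before and above in every library after adhesion, an order held by 142 of the tested genes (1.22%). An opposite direction of either kind, between the cell types or with adhesion, was found for the same 2 of 9 members and for 5.17% of tested genes. Without WT after replicate 1 there were 2 DE members in this contrast and without WT after replicate 2 there were 4.

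The rest of the pathway was followed in a list of 80 other genes in 7 roles, of which 69 were tested. Averaged over the cell types, 9 were DE after against before adhesion and all 9 were higher, beside 1.79% of tested genes that were DE and higher. The 9 were *Ikbke*, *Traf1*, *Tnip1*, *Ltb*, *Il1a*, *Il1b*, *Vcam1*, *Cxcl2* and *Irf1*. Of these 9, *Traf1*, *Ltb*, *Il1b* and *Cxcl2* reached the level of the low-count filter (0.613 CPM in 2 libraries) only after adhesion, so a gene like them had to be higher after adhesion to be tested, and nothing is read from counts that hold them. With culture time as a covariate 6 were DE, and the calls of *Traf1*, *Ltb* and *Irf1* were lost. Among the remaining subunits and IkB genes none of 3 was DE, with a log2 FC of 0.21 for *Rela*, the main activating subunit, 0.31 for *Nfkbib* (IkB beta) and 1.19 for *Nfkbid*, a nuclear IkB at 0.37 to 2.33 CPM. *Rela* read between 183 and 245 CPM in the 8 libraries. Of the kinases, 1 of 10 was DE.

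The IkB kinase genes *Chuk* (log2 FC -0.07), *Ikbkb* (0.01) and *Ikbkg* (-0.39, FDR = 0.109) and *Map3k14* (0.35), which encodes NIK, were not DE by edgeR. The DE kinase was *Ikbke*, an IkB kinase-related gene, with 23.7 and 24.9 CPM in WT before, 24.3 and 35.7 in WT after, 23.4 and 20.5 in E6 before and 61.2 and 60.0 in E6 after. Its log2 FC was 0.89 averaged (FDR = 0.0224). The 4 libraries before adhesion lay between 20.5 and 24.9 CPM, and E6 after stood above all others.

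Of the adaptors and ubiquitin ligases 1 of 16 was DE, *Traf1*, an adaptor of TNF receptors and a known target. *Traf1* had counts of 8 and 6 in WT before and 10 and 11 in WT after. In E6 its counts were 1 and 0 before and 30 and 28 after. Its averaged log2 FC of 2.95 rests on 1 and 0 counts in E6 before. *Traf1* reached the filter level only after adhesion, so nothing is read from its FDR of 0.024 by edgeR. Its order of conditions was that of *Birc3*. Of the other negative regulators 1 of 10 was DE, *Tnip1*, the partner of the *Tnfaip3* product, with a log2 FC of 0.60 (FDR = 0.0105). None of the 7 receptors tested was DE. *Cd40* and *Tnfrsf11a*, which encodes RANK, did not pass the filter. They had 0 counts in every library of WT and of E6 before. In E6 after, *Cd40* had counts of 2 and 3 and *Tnfrsf11a* of 2 and 6.

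Of the 7 ligands listed, 4 passed the low-count filter, and *Ltb*, *Il1a* and *Il1b* were DE. *Ltb*, which encodes lymphotoxin beta, was at 0 counts in all 4 libraries before adhesion and had counts of 5 and 12 in WT after and 33 and 37 in E6 after. Against the floor of 3 counts per library this was at least 2.31-fold higher in WT and at least 11.4-fold higher in E6. *Il1b* had counts of 2 and 1 in WT before and 20 and 25 in WT after. In E6 its counts were 2 and 1 before and 42 and 28 after. Its averaged log2 FC was 4.01 (FDR = 0.00549 by edgeR). *Ltb* and *Il1b* reached the filter level only after adhesion, so nothing is read from their calls. *Il1a* had a log2 FC of 2.20 (FDR = 0.0231). *Ltb* and *Il1b* are also made by lymphoid and myeloid cells, and the part of such RNA was not tested.

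Of the other known targets, 3 of 19 were DE, the adhesion molecule *Vcam1* (log2 FC 1.83, FDR = 0.0124), the chemokine *Cxcl2* (3.25, FDR = 0.0241) and the transcription factor *Irf1* (1.53, FDR = 0.0342). *Cxcl2* reached the filter level only after adhesion, so nothing is read from its FDR or from this count. Within E6, 8 of the 69 were DE and higher, the 9 above without *Irf1*, beside 1.93% of tested genes. These hold *Traf1*, *Ltb*, *Il1b* and *Cxcl2*, which reached the filter level only after adhesion, so nothing is read from this count. With culture time as a covariate, the calls of *Ltb*, *Vcam1* and *Cxcl2* within E6 were lost. Within WT, 0 of 69 were DE by edgeR or DESeq2, beside 0% of tested genes. An unadjusted p under 0.05 was reached by 14, of which 13 were higher. Of tested genes, 7.48% had such a p in either direction. The 14 hold *Tnf*, *Ltb*, *Il1b* and *Cxcl2*, which reached the filter level only after adhesion, so nothing is read from that count either. Leaving out WT after replicate 1 gave 9 DE genes in WT and leaving out WT after replicate 2 gave 19. The averaged count of 9 became 20 without WT after replicate 1, 13 without WT after replicate 2, where *Tnip1* was lost, and 1 to 2 without any single library of WT before, E6 before or E6 after. That within E6 became 0 without any single E6 library and 24 without either library of WT after.

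**Figure D4:**
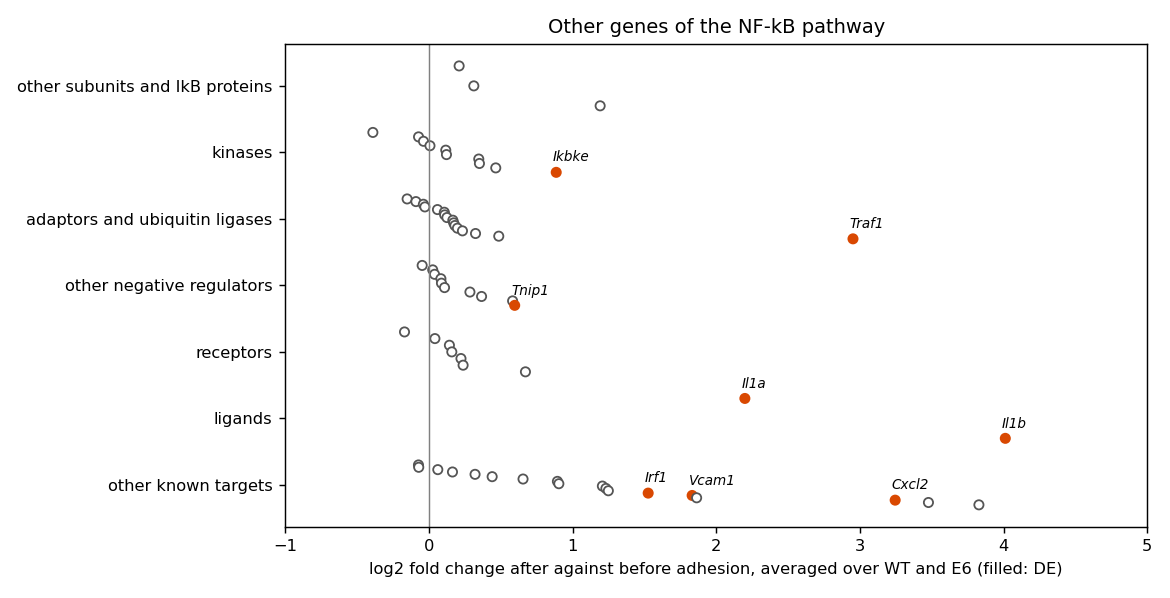
Log2 FC after against before adhesion, averaged over the cell types, for 66 of the 69 tested pathway genes by role, with DE mRNAs filled and named. *Tnf*, *Ltb* and *Ccl2* are left out because a group had 0 counts, and the filled points all lie above 0. *Traf1*, *Il1b* and *Cxcl2* reached the filter level only after adhesion, so they could be tested only if higher after it.

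Between the cell types, averaged over both conditions, 6 of the 69 were DE, each with the higher level in E6, beside 5.22% of tested genes that were DE and higher. These were *Il1a* (log2 FC 1.42), *Icam1* (1.54), *Vcam1* (2.06), *Cxcl2* (2.27), *Lcn2* (2.29) and *Cflar* (0.75), with FDR from 0.000463 to 0.0262. *Vcam1* and *Icam1* encode ligands of integrins on leukocytes. *Vcam1* read 0.43 and 0.44 CPM in WT before, 1.56 and 2.08 in WT after, 2.22 and 2.09 in E6 before and 5.27 and 7.77 in E6 after. *Lcn2*, which encodes an iron-carrier binding protein, read 2.00 and 1.25, 3.90 and 3.10, 9.64 and 8.52, and 16.0 and 14.2 CPM in the same order. E6 before adhesion thus stood above WT after adhesion for *Lcn2*. For *Vcam1* the 2 nearly met, at 2.089 CPM (39 counts) in E6 before replicate 2 and 2.081 CPM (43 counts) in WT after replicate 2. *Vcam1*, *Lcn2* and *Cflar* were the 3 DE genes before adhesion as well, beside 5.01% of tested genes that were DE. The count of 6 fell to 3 without WT before replicate 1, E6 before replicate 1 or E6 after replicate 2 and was 12 without WT after replicate 2.

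The genes outside the members whose levels over the 8 libraries were most like the mean profile of the 9 members were *C3*, *Sp100*, *Zfp36*, *Itgb2* and *Ikbke*, in this order. Likeness was the Euclidean distance of log2 CPM centred on the gene's own mean. *C3*, a complement gene, had a distance of 0.48 and read 16.8 and 16.7 CPM in WT before, 33.7 and 29.95 in WT after, 18.6 and 18.5 in E6 before and 50.9 and 49.8 in E6 after. The median over the 10284 candidates was 2.19, and the members themselves ranged from 0.68 (*Tnfaip3*) to 1.96 (*Nfkbia*).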

How the data were processed

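Per the labels the libraries were made with a TruSeq Stranded mRNA kit, whereas the study's methods name the total RNA version. The authors aligned reads to GRCm38 (mm10) with STAR 2.5.0a and deposited raw read counts per gene from HTSeq, whose annotation and strand setting are not given in the sources used here. The deposited counts were read per library, and symbols that had been turned into dates in 1 library were restored from the shared gene order. Gene positions came from GENCODE vM21. Counts were analysed in R 4.3.3 with edgeR 4.0.16 (filterByExpr, TMM, quasi-likelihood test, 1 mean per condition, 8 libraries), leaving 11672 tested genes. SEs are the absolute log2 FC over the square root of F. Log2 CPM used a prior count of 2. Python 3.11.15 with pandas 2.3.3 and matplotlib 3.10.9 read the files and drew the plots. The procedure was tested on simulated data.

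The members and lists were chosen with earlier results of these data known. Named were all 10 members, 7 further core genes of the pathway, up to 4 DE genes per role and contrast with the largest FC, the 5 most similar genes, *Aire* and the markers. *Tnf*, *Ccl2*, *Psd*, *Ltbr*, *Myd88*, *Tlr2*, *Csf2*, *Cd40* and *Tnfrsf11a* were named after their values were seen. Alternatives were DESeq2 1.42.0, other size factors, no filter, no FC limit, a replicate block, culture time, fewer libraries and, chosen after seeing the data, a GC correction with a lowess span of 0.3 (limma 3.58.1). The authors named DESeq2 as their tool. Depth is in the report, and 13506610 counts in the shallowest library make 3 counts 0.222 CPM.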

Additional observations from a re-analysis of the deposited data

Results flagged for a closer look

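Several genes had a difference between the cell types that ran in opposite directions in the conditions, in every library. E6 lay below WT in each library before adhesion and above it in each after for *Nfkbie* (log2 difference of the adhesion effects 1.52), *Birc3* (2.43), *Ikbke* (1.15), *Traf1* (5.13) and *Tnip1* (0.40). For *Ikbke* the gap before adhesion was small, with 23.7 CPM in WT before replicate 1 and 23.4 in E6 before replicate 1. Its log2 FC of E6 against WT before adhesion was -0.15 (FDR = 0.740 by edgeR). For *Ikbkb*, both WT libraries were lower after adhesion and both E6 libraries higher, with a log2 difference of 0.28. By edgeR's test of the difference itself none passed, with an FDR of 0.988 for all 6. *Traf1* in E6 before adhesion rests on 1 and 0 counts, so its value has no firm size. Over the whole pathway list, 6 of 69 genes lay below WT in E6 before and above it after, the others being *Myd88*, *Tlr2* and *Csf2*, and 1, *Ltbr*, ran the other way. An opposite direction of any kind in every library was found in 2 of 9 members, 8 of 69 pathway genes and 5.17% of tested genes, and no explanation was tested. For the members this count is not independent of their choice.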

How the results depend on the processing

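Of the values of single members across the alternatives, 670 kept their direction and their side of the threshold, 29 passed it newly, 18 no longer passed it and 21 changed sign. Of the members, 2 were DE averaged over conditions with no FC limit. Before adhesion 1 was DE with DESeq2, with the GC correction, with the GC correction and replicate block, and with only the libraries compared. After adhesion 4 were DE with DESeq2, 5 with the GC correction, 4 with the GC correction and replicate block and 0 with only the libraries compared. Of the pathway genes within E6, 5 were DE with culture time as a covariate and 22 with only the libraries compared. The median log2 FC of members with adhesion was 1.31 with culture time and 1.54 with the GC correction, alone or with the block.

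Leaving out 1 library gave 0 to 2 DE members averaged, 0 to 2 before adhesion, 0 to 7 after and 0 to 4 for the difference. It gave 1 to 20 DE pathway genes with adhesion averaged, 0 to 19 in WT, 0 to 24 in E6 and 3 to 12 between the cell types, and a median log2 FC of 1.12 to 1.56. Members apart after adhesion, counted over all 10 with *Bcl3*, were 7, without single libraries 7 to 9, and 6 with library size alone. *Bcl3* was apart only through 1 count in WT after replicate 1 (0.071 CPM) against 1 in E6 before replicate 1 (0.069 CPM), both under the floor. Where a lone library was left in a condition, it was assumed to vary like the others.

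Same-numbered libraries did not deviate together (correlations from -0.08 to 0.22 over 9768 genes), so the replicate numbers were not taken as a pairing. With the replicate block, 1 member was DE after adhesion, *Tnfaip3*, and the call of *Birc3* ended (adjusted p = 0.0514).

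Estimates near 0 changed sign. E6 against WT averaged, *Nfkbie* read 0.0053 by library size alone and 0.0095 with no filter, and -0.13 to 0.17 without single libraries. Over the same exclusions *Nfkbia* read -0.090 to 0.53, *Nfkbiz* -0.038 to 0.34 and *Birc3* -0.050 to 0.26. Before adhesion *Nfkbiz* read 0.0021 with culture time and -0.29 to 0.082 without single libraries. After adhesion *Rel* read -0.14 to 0.30 likewise. For the difference of effects, *Rel* read 0.047 with the GC correction, 0.047 with that and the block and -0.30 to 0.15 without single libraries, and *Relb* 0.048 with culture time and -0.70 to 0.42 without single libraries. *Nfkb1* with adhesion read -0.063 to 0.15 without single libraries. The cause of these changes was not tested.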
